A study of Mus musculus with 4 samples.

Results

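The spindle checkpoint and chromosome segregation genes examined here were Ttk, Bub1, Bub1b, Bub3, Mad2l1, Aurka, Aurkb, Plk1, Espl1 and Rad21. They were chosen by name, and all 10 had probes on the array, among 22180 named genes in all, of which 21341 were autosomal and lay on 1 chromosome. Array comparative genomic hybridization was run on genomic DNA of 4 liver tumours: tumour and reference DNA, each with its own dye, bind together to short synthetic probes, and the ratio of the dyes at a probe reads relative copy number. The tumours came from 4 untreated mice, labelled male, of genotype Trp53-/-, on the C57BL/6J background with liver-specific loss of the gene per the series title. Tumour DNA carried Cy5, and the Cy3 reference was made from the spleens of 3 littermates, pooled and matched for sex, and is labelled male and Trp53-/- as well. The labelling protocol calls the reference liver, while the sample labels call it spleen, and spleen is written here. The driver of the liver-specific loss and the age of the mice are not given in the sources used here. Nothing in the labels says how many tumour cells each sample held, so no whole copy numbers are given. In a sample made of tumour cells alone, 3 copies against 2 would read 0.58 and 1 copy against 2 would read -1 on the log2 scale.

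The spindle checkpoint holds a dividing cell in metaphase until every chromosome is attached to the spindle. At unattached kinetochores the kinase Ttk (also called Mps1) acts on the kinetochore scaffold and brings in Bub1 and Bub3, and the products of Bub1b (BubR1) and Mad2l1 (Mad2) then block the anaphase-promoting complex. Aurkb corrects faulty attachments, Aurka and Plk1 help build the spindle poles, and once the checkpoint is satisfied the protease separase, made by Espl1, cuts the cohesin subunit Rad21 so that sister chromatids part. Hepatocytes are often polyploid, and p53 normally limits the growth of cells that have missegregated their chromosomes. A DNA array reads how many copies of these genes a sample holds, and says nothing of their expression.

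Positions are those of the mouse build mm9, and whether a probe lies in an exon or an intron was not assigned. The 10 genes held 26 probes of 57 to 60 bases. The probe sequences of 3 genes are shown because the comparisons with chromosomes 9 and 15 rest on them, and because the probes of Ttk and Espl1 differed from each other. They are written as the array files give them, numbered by coordinate. Ttk, on chromosome 9, had probes at chr9:83756187-83756246 and chr9:83761797-83761856.
Ttk probe 1: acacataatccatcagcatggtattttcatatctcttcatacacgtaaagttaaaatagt
Ttk probe 2: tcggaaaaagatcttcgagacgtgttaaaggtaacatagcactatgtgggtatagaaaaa
Rad21, on chromosome 15, had probes at chr15:51794466-51794525, chr15:51799475-51799534, chr15:51805372-51805431, chr15:51814201-51814260 and chr15:51818048-51818107.
Rad21 probe 1: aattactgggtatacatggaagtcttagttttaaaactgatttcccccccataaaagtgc
Rad21 probe 2: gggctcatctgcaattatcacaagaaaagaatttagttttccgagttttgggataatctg
Rad21 probe 3: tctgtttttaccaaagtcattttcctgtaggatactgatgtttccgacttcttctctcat
Rad21 probe 4: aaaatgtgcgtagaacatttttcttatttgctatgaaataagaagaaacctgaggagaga
Rad21 probe 5: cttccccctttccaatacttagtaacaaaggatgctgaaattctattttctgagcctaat
Espl1, also on chromosome 15, had probes at chr15:102136375-102136434 and chr15:102150309-102150368.
Espl1 probe 1: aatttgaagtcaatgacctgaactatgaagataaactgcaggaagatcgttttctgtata
Espl1 probe 2: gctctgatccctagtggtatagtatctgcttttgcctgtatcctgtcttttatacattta
The GC content of the 26 probes lay between 28.3% and 40.4%. No spot of the 26 probes was flagged or saturated, and all 104 spots, 26 on each of 4 arrays, were well above background.

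The arrays differed in noise, and 2 of them went against their sex labels. The SD between neighbouring probes was 0.12, 0.37, 0.15 and 0.15 (log2) on the arrays of tumours 1 to 4, so tumour 2 was read with the largest error. Chromosome X against the autosomes read -0.82 for tumour 1 and 0.84 for tumour 4, against -0.054 for tumour 2 and -0.0061 for tumour 3. The Y signal against the autosomes was -3.10 in the tumour channel of tumour 4's array and -3.38 in the reference channel of tumour 1's, against -1.17 to -0.69 in the other channels, although all are labelled male. Over all probes the arrays of tumours 1 and 4 correlated at -0.61, and over autosomal probes at 0.18 (Pearson, across probes, which are not independent). The labels state the dyes, so the direction of every ratio was kept, and the members' means over tumours 2 and 3 alone are given below where they bear on a result. Tumours 1 and 2 lay on 1 slide, tumours 3 and 4 on another. The 2 probes of the targeted gene, Trp53, averaged -0.54 ± 0.33 and 0.28 ± 0.17 (SD, n = 4) and so went opposite ways.

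Each gene was summarised in each tumour as the mean over its probes of the log2 ratio of tumour over reference, centred on the autosomal median. The first question was whether any of the 10 genes stood off 0 in the tumours. Separase (Espl1) and the cohesin subunit Rad21 lay above 0 in all 4 tumours, and the checkpoint kinase Ttk, Bub1 and Mad2l1 lay below 0 in all 4. None of the 10 passed limma after Benjamini-Hochberg adjustment over the 21341 genes. No gene of the genome did so, with 0 higher and 0 lower (0% each). At an unadjusted p under 0.05, Espl1 and Rad21 were among the 1696 higher genes (7.95%), and Ttk and Mad2l1 were among the 2018 lower genes (9.46%). Above 0 in all 4 tumours, the 2 members stood among 3269 genes (15.3%). Below 0 in all 4 tumours, the 3 members stood among 3324 genes (15.6%). No test bears on these counts of 2 and 3 of the 10. The members' median was -0.069, against -0.0040 over all autosomal genes. The tests take the 4 tumours as replicates, and their p-values measure only the spread between these 4 ratios. That spread holds differences between the tumours and between the reference channels of the arrays, which the tests cannot separate. Any spread between the littermates within a pool is left out.

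**Figure D1:**
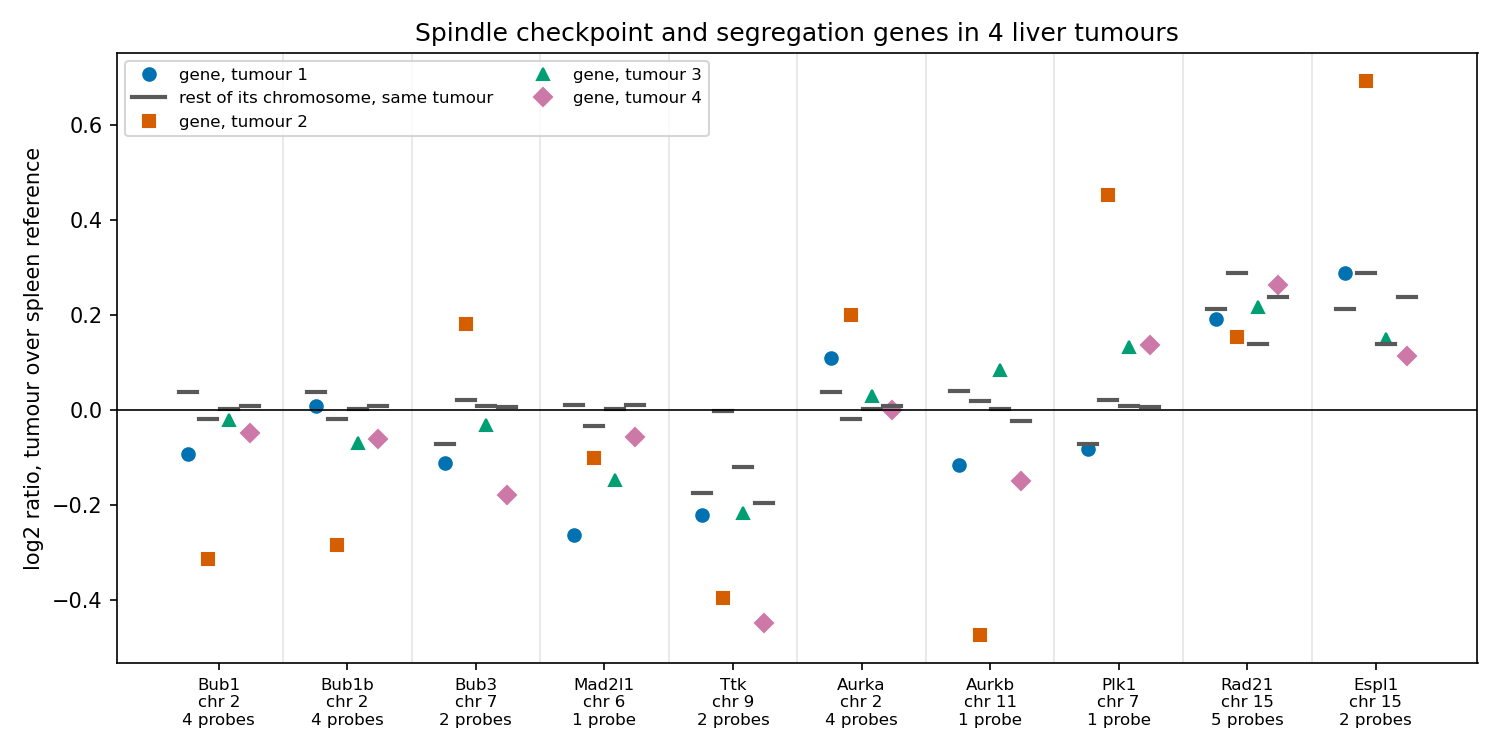
Log2 ratio of tumour over spleen reference (vertical axis) for each of the 10 genes, with 1 symbol per tumour and a bar for the rest of the gene's chromosome in the same tumour. Ttk sits below 0 and Rad21 and Espl1 above 0 in all 4 tumours, and tumour 2 holds both the highest value (0.69) and the lowest (-0.47).

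Ttk had log2 ratios of -0.22, -0.40, -0.22 and -0.45 in tumours 1 to 4. All values were below 0, with tumours 2 and 4 lower than tumours 1 and 3. The mean was -0.32 ± 0.12 (SD, n = 4), a ratio of 0.801, with a limma 95% interval of -0.47 to -0.18 and an adjusted limma p of 0.167. It averaged -0.31 on the first slide, -0.33 on the second, and -0.31 over tumours 2 and 3 alone. With the slide as a random block the same mean had an adjusted limma p of 0.0496, and 437 genes of the genome then passed. That fit used a negative correlation within slides (-0.34), which lowers the standard error of a mean. With normexp background correction, which works from the unprocessed signals, the mean was -0.52. The adjusted limma p was then 0.0516, just over the threshold of 0.05. In that setting probe 2 of Ttk read -1.004 in tumour 2, against -0.25 in the main setting. That spot was dim, with signals of 138 for the tumour and 165 for the reference. The other values of both probes were also lower with normexp, by less.

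The rest of chromosome 9 read -0.17, -0.0030, -0.12 and -0.20 in tumours 1 to 4. Below 0 in all 4 tumours is common there, with 519 of the 1261 genes of chromosome 9 (41.2%), Ttk among them. Set against its own chromosome, Ttk was lower by -0.045, -0.39, -0.096 and -0.25. In tumour 2 such differences had an SD of 0.32 over all genes with 2 probes. In tumour 1 Ttk lay nearly on its chromosome, whereas in tumour 2 the chromosome stood at about 0 and Ttk did not. The mean difference was -0.20 ± 0.16 (SD, n = 4), with a limma 95% interval of -0.37 to -0.026, an unadjusted p of 0.031 and an adjusted limma p of 0.402. It was -0.24 over tumours 2 and 3 alone, -0.13 without tumour 2, and -0.12 with the trend on signal intensity removed. Over the 99 probes within 1 Mb of the gene the mean was -0.10 ± 0.080 (SD, n = 4), and Ttk lay below this flank in all 4 tumours (exact two-sided sign-flip p = 0.13, rounded, the smallest that 4 tumours allow).

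The 2 probes of Ttk gave different values. Probe 1 read -0.40, -0.54, -0.35 and -0.43 in tumours 1 to 4, averaging -0.43 ± 0.083 (SD, n = 4). Its average was below those of all 99 flanking probes, of which the lowest was -0.42. The flanking probes were ranked in the main setting only. With the trend on probe GC removed, probe 1 read -0.37, -0.27, -0.32 and -0.39 in tumours 1 to 4. Probe 2 read -0.042, -0.25, -0.087 and -0.47 and averaged -0.21 ± 0.19 (SD, n = 4), and 21 of the 99 flanking probes had lower means. The probes lay close to each other in tumour 4 and apart by 0.26 to 0.36 in the other tumours. In tumours 1 and 3 the low value of Ttk thus stood mostly in 1 of its 2 probes. The segments that held Ttk averaged -0.18, -0.017, -0.12 and -0.20 over 1613 to 6771 probes, and none reached the threshold of -0.2 for a loss.

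Rad21, the cohesin subunit that separase cuts, read 0.19, 0.15, 0.22 and 0.26 in tumours 1 to 4. The values lay close together, and the mean was 0.21 ± 0.046 (SD, n = 4), a ratio of 1.15, with a limma 95% interval of 0.098 to 0.31 and an adjusted limma p of 0.167. Its mean was 0.17 on the first slide, 0.24 on the second and 0.19 over tumours 2 and 3 alone. All 5 probes were above 0 in tumours 1, 3 and 4, and 3 of 5 were in tumour 2, where they ranged from -0.37 to 0.76. Probe 3 was the most even, at 0.21, 0.31, 0.31 and 0.31. Probe 1 was the lowest, with a mean of -0.017 ± 0.19 (SD, n = 4), and 4 of the 84 flanking probes had lower means. Probe 4 was the dimmest of the gene, with signals of 200 to 360. With normexp background correction it read -0.33, -0.25 and -0.40 in tumours 1, 3 and 4, where the other probes stayed above 0.

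The rest of chromosome 15 read 0.21, 0.29, 0.14 and 0.24 in tumours 1 to 4, and 662 of its 844 genes (78.4%), Rad21 and Espl1 among them, were above 0 in all 4. Rad21 differed from its chromosome by -0.020, -0.13, 0.079 and 0.024, below it in tumours 1 and 2 and above it in tumours 3 and 4. The mean difference was -0.013 ± 0.091 (SD, n = 4), with a limma 95% interval of -0.14 to 0.11 and an adjusted limma p of 0.900. Its 84 flanking probes averaged 0.25 ± 0.092 (SD, n = 4). The difference of Rad21 from its chromosome was thus smaller than the spread between tumours.

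Espl1, which encodes separase, read 0.29, 0.69, 0.15 and 0.11 in tumours 1 to 4. Tumour 2 stood well above the other tumours. That array was the noisiest, and differences from the chromosome had an SD of 0.32 there over all genes with 2 probes. The part of noise in the value of Espl1 was not tested. The mean was 0.31 ± 0.27 (SD, n = 4), a ratio of 1.24, with a limma 95% interval of 0.057 to 0.56 and an adjusted limma p of 0.233. It was 0.49 on the first slide and 0.13 on the second, 0.42 over tumours 2 and 3 alone, and 0.18 ± 0.093 without tumour 2. Against the rest of chromosome 15 the gene differed by 0.077, 0.40, 0.010 and -0.12. The mean difference was 0.091 ± 0.22 (SD, n = 4), with an adjusted limma p of 0.607, and without tumour 2 it was -0.013. The 232 flanking probes averaged 0.21 ± 0.082 (SD, n = 4).

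The 2 Espl1 probes parted in tumour 4, where probe 1 read -0.23 and probe 2 read 0.45. In tumours 1 to 3 both were above 0, probe 1 at 0.25, 0.57 and 0.10 and probe 2 at 0.32, 0.81 and 0.19. By mean over tumours, probe 2 (0.45 ± 0.27, SD, n = 4) exceeded 214 of the 232 flanking probes, and probe 1 (0.18 ± 0.33) exceeded 90 of them. The value of Espl1 in tumour 4 was therefore a mean of 2 probes of opposite sign.

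**Figure D2:**
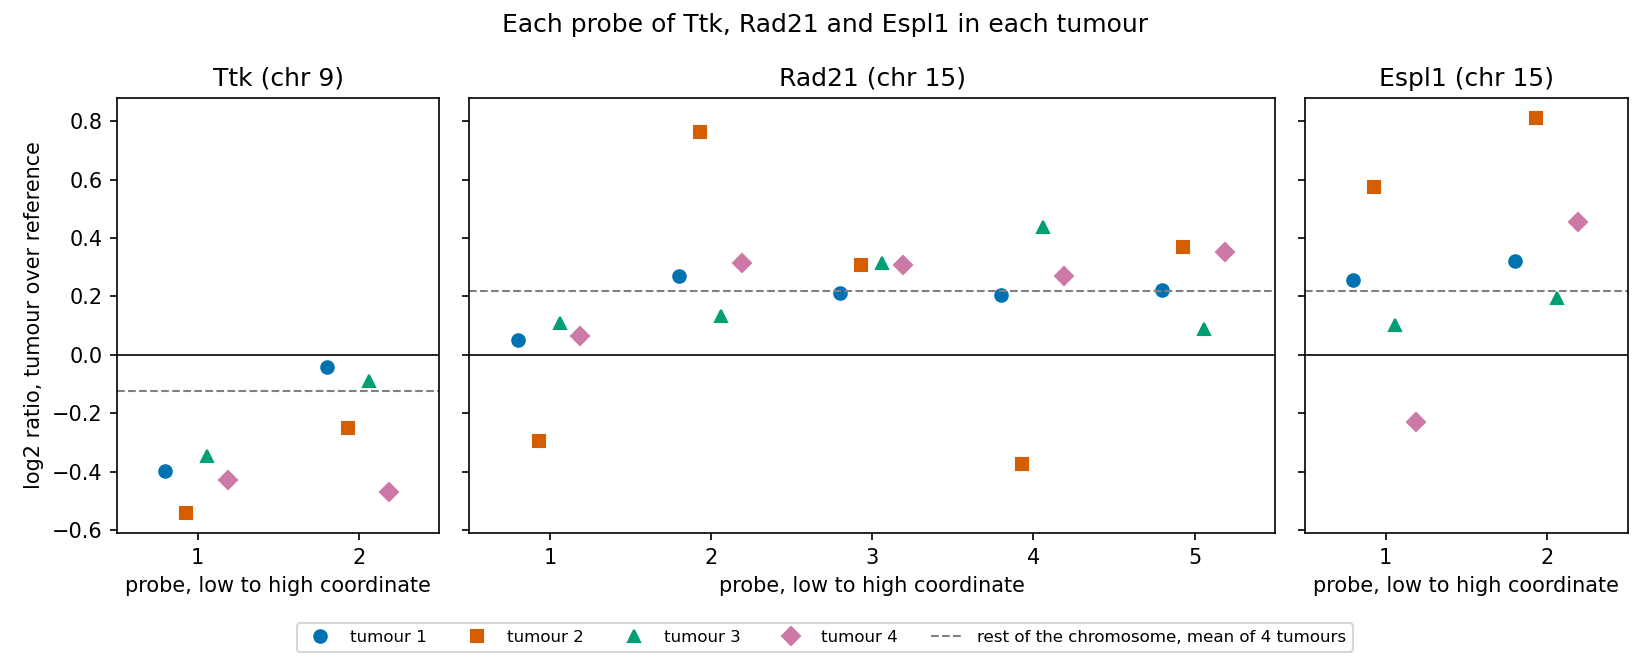
Log2 ratio of each probe of Ttk, Rad21 and Espl1 (vertical axis) in the 4 tumours, with probes in order of coordinate and a dashed line at the mean of the rest of the chromosome. Ttk probe 1 is low in every tumour, whereas the Rad21 probes scatter most in tumour 2 and the Espl1 probes part in tumour 4.

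**Figure D3:**
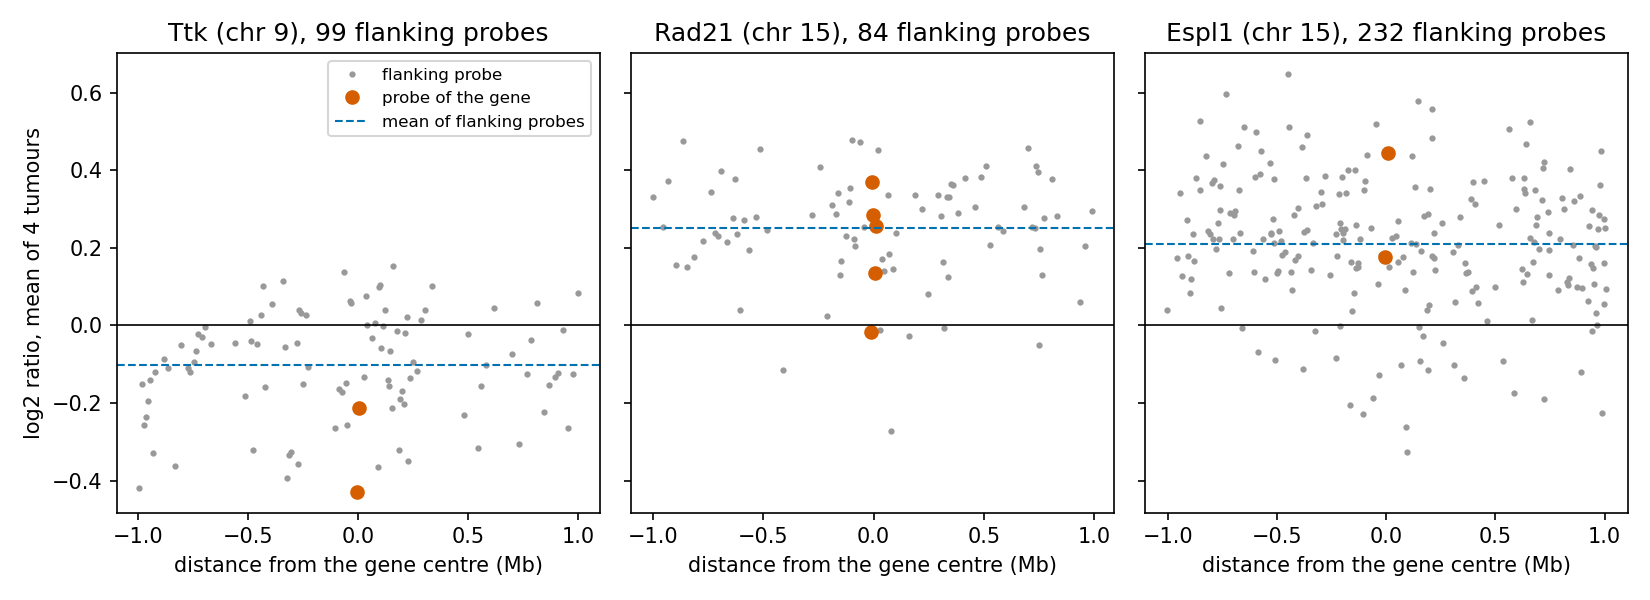
Mean log2 ratio over 4 tumours (vertical axis) of single probes within 1 Mb of Ttk, Rad21 and Espl1, against distance from the gene's centre in Mb, with the gene's own probes as large points and the flank mean as a dashed line. In the main setting, shown here, Ttk probe 1 lies just under the lowest of its 99 flanking probes. The probes of Rad21 and Espl1 lie among theirs.

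Segments were called gained or lost at a mean of 0.2 or -0.2. Of the 40 positions of the 10 genes in the 4 tumours, 5 were called gained, against 2.7% of all gene positions, and 0 were called lost, against 1.5%. All 5 belonged to chromosome 15. Rad21 was called gained in tumours 1, 2 and 4, in segments averaging 0.21, 0.24 and 0.26, and Espl1 in tumours 1 and 2, in segments averaging 0.21 and 0.36. In tumour 1 both lay in the same segment, of 4759 of the 6572 probes of chromosome 15. The other called segments held 1832 to 3811 probes, so the 5 positions do not stand for 5 separate gains. Just under the threshold were Espl1 in tumour 4 at 0.19 and Ttk in tumour 4 at -0.197. The absence of a loss depended on the setting, and Ttk was the gene concerned. With normexp background correction Ttk was called lost in tumours 1 and 4, in segments averaging -0.24 each, and with a penalty factor of 6 in tumour 4, at -0.21. With a threshold of 0.1 the 10 genes had 11 called positions, Ttk being lost in tumours 1, 3 and 4, and with 0.3 they had 1.

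The second question was whether the genes off chromosomes 9 and 15 stood apart from their own chromosomes, which were near 0. Against the rest of its chromosome, none of the 10 passed limma after adjustment, and neither did any gene of the genome (0 higher and 0 lower, 0% each). At an unadjusted p under 0.05, 0 members were among the 1275 higher genes (5.97%), and Ttk and Mad2l1 were among the 1330 lower genes (6.23%). No member was above its chromosome in all 4 tumours, against 3237 genes (15.2%), and Ttk, Bub1, Bub1b and Mad2l1 were below it in all 4, against 2744 genes (12.9%). Bub3, the remaining checkpoint gene of the 10, was above its chromosome in tumour 2, by 0.16. No test bears on the count of 4, since the genes were chosen with earlier results known. The members' median difference was -0.068, against 0.0066 over all autosomal genes.

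**Figure D4:**
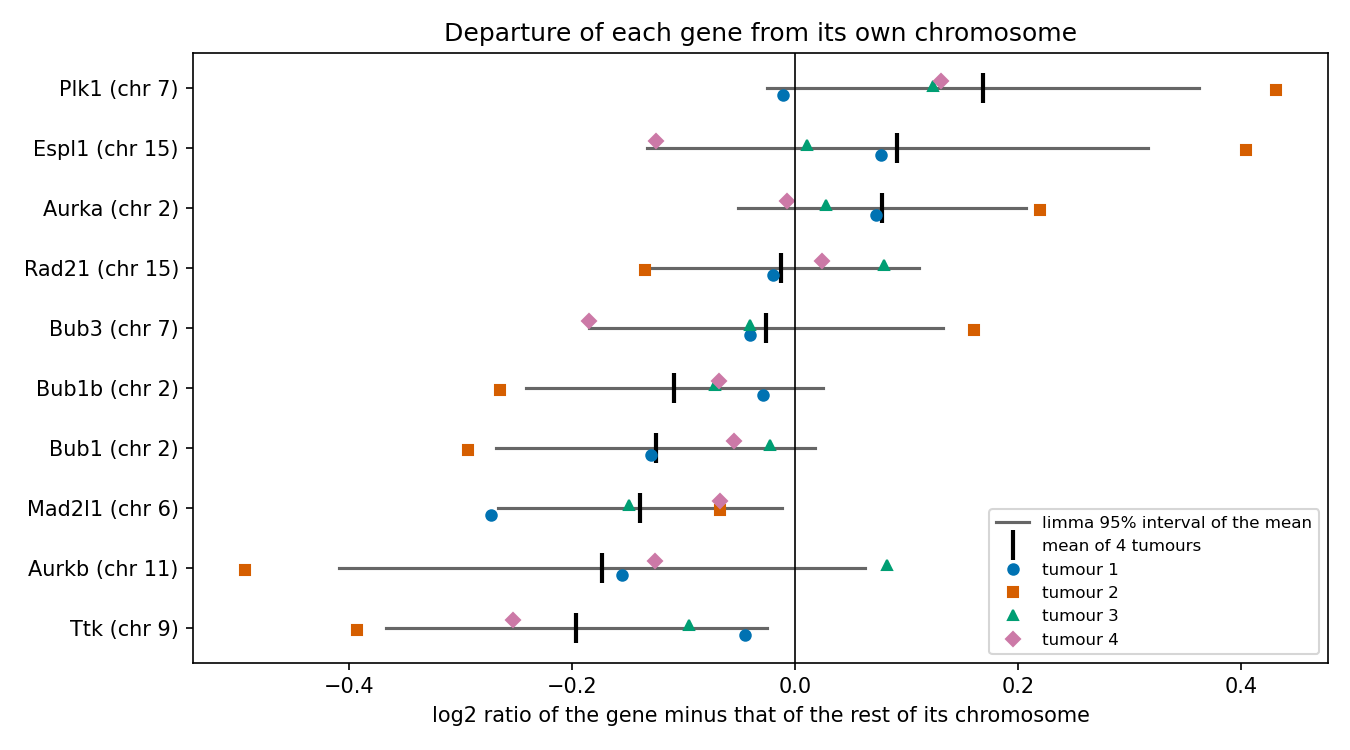
Log2 ratio of each gene minus that of the rest of its chromosome (horizontal axis), with 1 symbol per tumour, a tick at the mean of 4 tumours and a line for the limma 95% interval. The intervals of Ttk and Mad2l1 lie below 0 before adjustment for 21341 genes, and the other 8 span 0.

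Among the checkpoint genes, the kinase gene Bub1 on chromosome 2 read -0.093, -0.31, -0.021 and -0.048 in tumours 1 to 4. Bub1b, which encodes BubR1, lies on the same chromosome and read 0.0074, -0.28, -0.071 and -0.061. Both genes had their lowest value in tumour 2 and lay within 0.1 of 0 in the other tumours. Bub1 averaged -0.12 ± 0.13 and Bub1b -0.10 ± 0.13 (SD, n = 4 each), with adjusted limma p of 0.361 and 0.402. Minus the rest of chromosome 2 they averaged -0.13 ± 0.12 and -0.11 ± 0.11, and without tumour 2 these were -0.069 and -0.057, with gene values of -0.054 and -0.041. Over the 4 probes of each gene, the probes of Bub1 in tumour 2 ran from -0.52 to -0.15, all below 0. The probes of Bub1b in tumour 2 ran from -0.69 to 0.34, so 1 of its 4 probes went the other way. With the trend on signal intensity removed, Bub1 averaged -0.043 and Bub1b -0.031, and with normexp background correction they averaged -0.23 and -0.21.

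Mad2l1, whose product Mad2 binds and blocks the activator of the anaphase-promoting complex, had 1 probe, on chromosome 6. It read -0.26, -0.10, -0.15 and -0.057 in tumours 1 to 4, lowest in tumour 1. The mean was -0.14 ± 0.088 (SD, n = 4), with an adjusted limma p of 0.256, and minus its chromosome it was -0.14 ± 0.097 (unadjusted limma p 0.037, adjusted 0.402). Without tumour 1 the mean was closer to 0, at -0.10, and with the trend on signal intensity removed it was -0.22. Bub3, the partner that brings Bub1 and BubR1 to the kinetochore, had 2 probes on chromosome 7 and read -0.11, 0.18, -0.032 and -0.18. Its tumours lay on both sides of 0, with a mean of -0.036 ± 0.16 (SD, n = 4) and an adjusted limma p of 0.792. Its mean was 0.074 over tumours 2 and 3 alone.

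Among the mitotic kinases, Aurka, which acts at the spindle poles, read 0.11, 0.20, 0.029 and -0.00039 over 4 probes on distal chromosome 2. Its mean was 0.084 ± 0.089 (SD, n = 4), with an adjusted limma p of 0.415, and it lay 0.078 ± 0.10 above the rest of chromosome 2. Without tumour 2 these were 0.046 and 0.031. It lay above its 102 flanking probes in 4 of 4 tumours, by 0.056 ± 0.040 (SD, n = 4; exact two-sided sign-flip p = 0.13). With normexp background correction the mean of Aurka was -0.011. Plk1, a kinase of spindle assembly and mitotic exit, had 1 probe on chromosome 7 and read -0.082, 0.45, 0.13 and 0.14. Only tumour 1 was below 0, and tumour 2 stood highest. The mean was 0.16 ± 0.22 (SD, n = 4), with an adjusted limma p of 0.378, and 0.062 ± 0.13 without tumour 2. It was 0.084 with the trend on signal intensity removed and 0.27 with normexp background correction.

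Aurkb, the kinase of the chromosomal passenger complex, had 1 probe on chromosome 11 and read -0.12, -0.47, 0.085 and -0.15. Tumour 3 was above 0, and tumour 2 was the lowest. The mean was -0.16 ± 0.23 (SD, n = 4), with an adjusted limma p of 0.381. It was -0.061 without tumour 2, -0.013 with the trend on signal intensity removed, and -0.33 with normexp background correction. The paralogous kinases Aurka and Aurkb thus lay on opposite sides of 0 by their means. Their difference was 0.25 ± 0.31 (SD, n = 4) and was above 0 in 3 of 4 tumours. The exact two-sided sign-flip p was 0.25, and 0.35 adjusted over 7 pairs chosen with their values known. Without tumour 2 this difference was 0.11.

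Ordered by mean value, the genes ran from Espl1 (0.31) through Rad21, Plk1, Aurka, Bub3, Bub1b, Bub1, Mad2l1 and Aurkb to Ttk (-0.32). The order depended on the arrays whose X and Y signals went against their labels. With the sign of tumour 4 turned, Ttk averaged -0.096 and Mad2l1 was lowest at -0.11, and with the sign of tumour 1 turned, Plk1 was highest at 0.20 and Espl1 averaged 0.17. Each turn moved 1 end of the order and kept the other. Espl1 stayed highest with tumour 4 turned (0.25), and Ttk stayed lowest with tumour 1 turned (-0.21). Over tumours 2 and 3 alone, Espl1 (0.42) and Ttk (-0.31) were again the ends. Both ends together thus held in the labelled direction and over tumours 2 and 3, but with neither sign turned. The exact sign-flip test cannot separate the 9 neighbouring pairs in this order, since its smallest p with 4 tumours is 0.13 (rounded). The pairs were also ordered by the same means. Their adjusted p of 0.984 or more over the 9 pairs therefore does not show that neighbours were alike. The closest neighbours, Bub1b and Bub1, differed by 0.016 ± 0.064 (SD, n = 4). Of 7 pairs chosen for comparison with their values known, 4 differed the same way in every tumour. Rad21 exceeded Ttk by 0.41, 0.55, 0.43 and 0.71, a mean of 0.53 ± 0.14 (SD, n = 4). Espl1 exceeded Ttk by 0.51, 1.09, 0.36 and 0.56, a mean of 0.63 ± 0.32 (SD, n = 4). Plk1 exceeded Bub3, on the same chromosome, by 0.19 ± 0.13, and Aurka exceeded Bub1, also on the same chromosome, by 0.20 ± 0.22 (SD, n = 4 each). The difference of Aurka and Bub1 was 0.10 without tumour 2. Each of these 4 pairs had an exact two-sided sign-flip p of 0.13, the smallest possible, and 0.219 adjusted over the 7 pairs. Since the pairs were chosen with their values known, these p-values only describe them and test nothing. Rad21 and Espl1 lie on chromosome 15, which averaged 0.22, and Ttk on chromosome 9, which averaged -0.12. Espl1 and Rad21, both on chromosome 15, differed by 0.10 ± 0.31 (SD, n = 4), with Espl1 higher in 2 of 4 tumours, and by -0.040 without tumour 2.

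The spread among the 10 genes was widest in tumour 2, the noisiest array. From the highest to the lowest gene it was 0.55 in tumour 1 (Espl1 to Mad2l1), 1.17 in tumour 2 (Espl1 to Aurkb), 0.43 in tumour 3 (Rad21 to Ttk) and 0.71 in tumour 4 (Rad21 to Ttk). After each gene's chromosome was subtracted, the SD over the 10 genes was 0.11, 0.33, 0.087 and 0.11 in tumours 1 to 4, against 0.12, 0.33, 0.12 and 0.15 over all autosomal genes. The spread over genes was larger where fewer probes read them. Among genes with 1 probe, as Mad2l1, Aurkb and Plk1 have, this SD was 0.44 in tumour 2 and 0.15 to 0.20 in the other tumours. Among genes with 2 probes, as Ttk, Espl1 and Bub3 have, it was 0.32 in tumour 2 and 0.11 to 0.14 in the others. Among genes with 5 probes, as Rad21 has, it was 0.21 in tumour 2 and 0.073 to 0.094 in the others.

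The profiles most like Ttk, Rad21 and Espl1 over the 4 tumours were sought among 9593 autosomal genes with at least 3 probes, by Euclidean distance of the log2 ratios. For Rad21 the nearest were Lrrc6 (distance 0.055), AK132982 (0.065) and AK080719 (0.071), all on chromosome 15. For Espl1 they were AK050381 (0.10) and Tmem184b (0.11) on chromosome 15 and Rnf122 (0.15) on chromosome 8. For Ttk they were Sdccag1 on chromosome 12 (0.049) and Zfp560 (0.054) and Ptplad1 (0.087) on chromosome 9. Sdccag1 read -0.20, -0.44, -0.22 and -0.46 over 5 probes, each within 0.05 of Ttk in the same tumour. Chromosome 12, like chromosome 9, was below 0 in these tumours, at -0.17, -0.034, -0.11 and -0.18. These distances describe 4 arrays and carry no test.

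Of 99 other genes of the same machinery in 4 lists, 83 were matched to an autosomal gene on the array. None passed limma after adjustment, and at an unadjusted p under 0.05, 3 were higher (3.61%, against 7.95% of all autosomal genes) and 12 lower (14.5%, against 9.46%). Their median was -0.010, against -0.0040 over all autosomal genes. Among 33 spindle checkpoint and kinetochore genes 1 was higher (3.03%) and 6 were lower (18.2%) at the unadjusted threshold, and the median was -0.032. Among 16 genes of the anaphase-promoting complex, the ligase that the checkpoint blocks, 0 were higher and 1 lower (6.25%), with a median of -0.025. Among 12 genes of cohesin and separase control 1 was higher (8.33%) and 3 were lower (25%), with a median of -0.013. Among 22 genes of mitotic kinases, motors and the spindle 1 was higher (4.55%) and 2 were lower (9.09%), with a median of 0.021. No test bears on these shares.

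By chromosome, the 7 wider-list genes on chromosome 9 had a median of -0.081, and the 4 on chromosome 15 had a median of 0.11. On chromosome 9 with Ttk, Kif23, a motor of the central spindle, read -0.32, -0.17, -0.16 and -0.32, and Stag1, a cohesin subunit with 33 probes, read -0.14, -0.14, -0.12 and -0.27. Zwilch, a subunit of the complex that brings dynein to kinetochores, read -0.24, -0.065, -0.15 and -0.28. These 3 were below 0 in all 4 tumours, as Ttk was, with means of -0.24 ± 0.092, -0.17 ± 0.069 and -0.19 ± 0.097 (SD, n = 4 each) and adjusted limma p of 0.167 to 0.201. The other chromosome 9 genes had means nearer 0, namely Ccnb2, a mitotic cyclin (-0.081 ± 0.16), Zw10, a partner of Zwilch (-0.032 ± 0.27), Spc24, a subunit of the Ndc80 complex (0.047 ± 0.26), and Anapc13 (0.079 ± 0.26). Each of these 4 was positive in tumour 2, the noisiest array, in which chromosome 9 itself stood at about 0. Without tumour 2 their means were -0.15 for Ccnb2 and Zw10, -0.084 for Spc24 and -0.031 for Anapc13. Ttk had no position in a called loss, against 5 of 28 for the 7 wider-list genes of chromosome 9, with 1 each for Zwilch, Kif23, Ccnb2, Zw10 and Spc24.

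On chromosome 15 with Rad21 and Espl1, the centromere protein gene Cenpm averaged 0.17 ± 0.15 and Racgap1, a cytokinesis regulator, 0.13 ± 0.16 (SD, n = 4 each). Nipbl, which loads cohesin, averaged 0.097 ± 0.091 over 18 probes, and the meiotic cohesin subunit Smc1b 0.059 ± 0.11 (SD, n = 4 each). All 4 means were below that of chromosome 15 as a whole, and each gene was below 0 in 1 tumour, which was tumour 3 for Cenpm and tumour 2 for the other 3. Without tumour 2 the means were 0.11 for Cenpm, 0.20 for Racgap1, 0.14 for Nipbl and 0.11 for Smc1b. Rad21 and Espl1 had 5 of 8 positions in gained segments, against 9 of 16 for these 4 genes. Cenpo, on chromosome 12, averaged -0.051 ± 0.11 (SD, n = 4), or -0.10 without tumour 2, and 1 of its 4 positions was called lost.

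Off these chromosomes, the 2 genes of each list with the largest means were mostly read by 1 or 2 probes. Ube2s, an E2 enzyme of the anaphase-promoting complex, read -0.23, -0.96, -0.23 and -0.59 from 1 probe, and Plk2, a polo-like kinase, read 0.16, 0.44, 0.10 and 0.31 from 2. Both kept 1 direction in all 4 tumours, with adjusted limma p of 0.181 and 0.189. Dsn1, a kinetochore subunit, averaged -0.34 ± 0.32 and Prc1, a bundling protein of the central spindle, -0.25 ± 0.27 (SD, n = 4 each). Tumour 2 was the lowest for both, and without it the means were -0.18 and -0.13. Pds5a, a cohesin regulator with 8 probes, read -0.19, -0.45, -0.15 and -0.11, below 0 in all 4 tumours, with an adjusted limma p of 0.206. None of these 5 genes lay in a called segment.

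**Figure D5:**
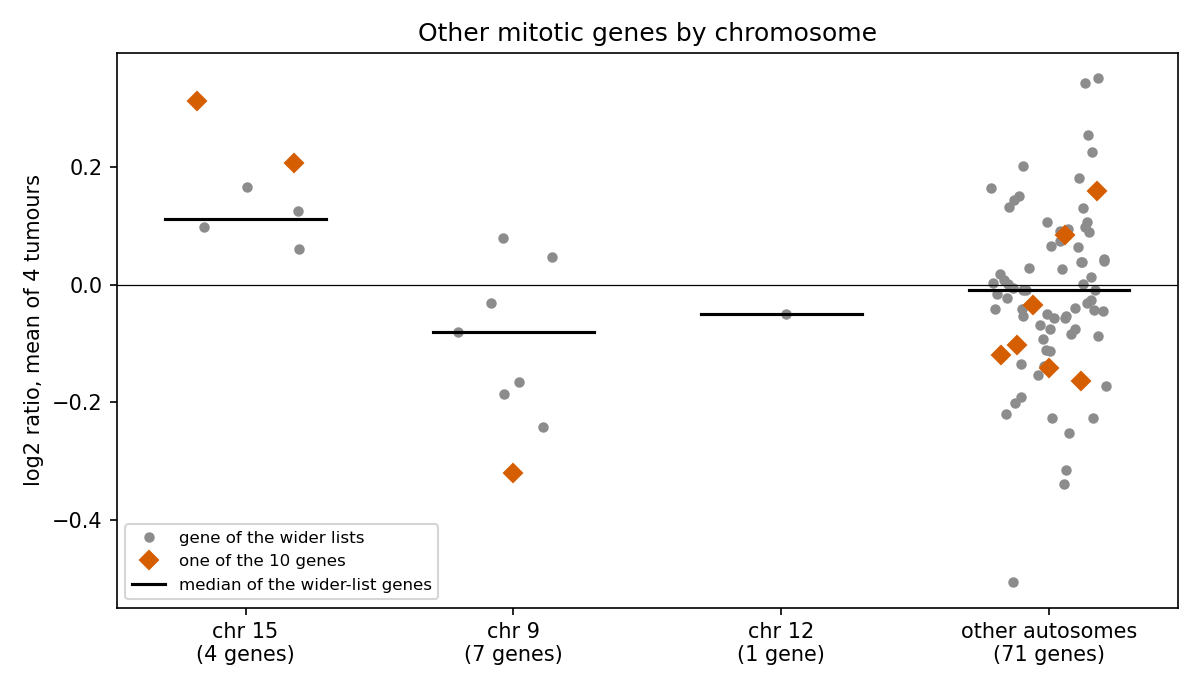
Mean log2 ratio over 4 tumours (vertical axis) of 83 other mitotic genes and of the 10 genes, grouped by chromosome, with a bar at the median of the 83 in each group. The chromosome 15 genes lie above 0 and most chromosome 9 genes below it, and the other autosomes centre near 0.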

How the data were processed

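Per the file headers, the authors deposited Agilent Feature Extraction output (12.0.1.1; 12.0.0 per the submitters' processing notes). The authors' deposited processed intensity is background-subtracted, detrended and dye-normalized by a linear factor, per the file headers. The deposited mean and background intensities are not normalized, and the deposited log10 ratio was used only to check direction. From these, log2 of processed Cy5 over processed Cy3 was computed, flagged spots (81, 258, 96 and 173) were left out, spots of 1 probe were averaged, and every array was shifted to an autosomal median of 0 over 159076 probes, with no loess or quantile step. Between 99.0% and 100.0% of spots were well above background in either channel.

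Gene means, and gene means minus the rest of the chromosome, were tested against 0 with limma 3.58.1 in R 4.3.3 (intercept, eBayes, Benjamini-Hochberg over 21341 genes). Single values were tested by exact two-sided sign-flip permutation. Segments came from penalised least squares with a penalty factor of 3 and at least 5 probes per call, and a gene was called by the segment of its middle probe. Python 3.11.15 was used, and the scripts were tested on simulated data.

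The 10 genes, the 4 wider lists and the pairs were chosen with earlier results of these data known. The rule for named genes took all 10. From each wider list it took up to 4 genes each on chromosomes 9, 12 and 15, and the 2 with the largest absolute means elsewhere. Of the 99 wider genes, 16 were not matched. The array design's gene names were used. Alternatives were normexp (offset 50), mode centring, removal of intensity and GC trends, dim probes left out, probe medians, a 2-probe minimum, slide as a random block, turned signs, other thresholds and penalties, and each tumour left out. Tumours 2 and 3 alone were added after the data were seen.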

Additional observations from a re-analysis of the deposited data

Results flagged for a closer look

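Of 40 groups of 4 tumours tested for a value far from the others, 4 were marked, and chance marks about 1 in 20. None was one of the 10 genes. Incenp, a chromosomal passenger protein that partners Aurkb, read 0.95 in tumour 2 from 1 probe, against 0.059 to 0.20 in the other tumours. Ube2c, an E2 enzyme of the anaphase-promoting complex, read 1.12 in tumour 2 from 1 probe, against 0.019 to 0.17 in the others. Esco2, a cohesin acetyltransferase, read -0.75 in tumour 2 from 2 probes, against -0.20 to -0.12 in the others. Stag1 read -0.27 in tumour 4 over 33 probes, against -0.14 to -0.12 in the others. Tumour 2's array had the largest noise between neighbouring probes, 0.37 on the log2 scale, and the part of noise in these values was not tested.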

How the results depend on the processing

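Limma called 0 genes and 0 of the 10 under every alternative for both fits, except with the slide as a random block for the gene value, which called 437 genes (194 higher and 243 lower) and 1 of the 10, Ttk, whose mean of -0.32 is the same there. That fit estimated a correlation of -0.34 within slides, from 2 slides. A negative correlation lowers the standard error that the fit gives a mean. The 10 means kept their direction and their side of the threshold in 141 of 147 refits of the gene value, and in 138 of 147 of the gene minus its chromosome. Bub3 turned positive over tumours 2 and 3 alone (0.074), with the sign of tumour 1 turned (0.020) or of tumour 4 (0.054), and ranged from -0.11 to 0.012 with 1 tumour left out. Minus its chromosome, Bub3 was 0.060 over tumours 2 and 3 alone and 0.066 with tumour 4 turned, and ranged from -0.089 to 0.026 with 1 tumour left out. Aurka was -0.011 with normexp correction and -0.015 minus its chromosome. Espl1 minus its chromosome ranged from -0.013 to 0.16 with 1 tumour left out. Rad21 minus its chromosome turned positive with the intensity trend removed (0.029), the GC trend removed (0.0018) or probe medians (0.021), and ranged from -0.044 to 0.028 with 1 tumour left out. The 5 called positions, all gains, became 11 at a threshold of 0.1 (3 of them losses of Ttk), 1 at 0.3, 8 with normexp (2 losses of Ttk) and 6 with a penalty factor of 6 (1 loss of Ttk), and 3 to 5 with 1 tumour left out. The causes were not tested. No paired analysis was possible because the tumours form 1 group. Precision is limited by 4 arrays, by 3 genes with 1 probe each and by the noise of tumour 2.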
